A study of Mus musculus with 10 samples.

Results

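The genes described here are Trp53, which encodes the transcription factor p53, and 5 genes that act back on p53 or answer to it in a feedback loop: Mdm2, Mdm4, Ccng1, Ppm1d and Trp53inp1. The members were chosen by symbol, for their known place around p53, when earlier results of these data were known, among them higher Mdm2 and Trp53inp1 in 4-thiouridine libraries without conversion than in untreated ones. The levels in that contrast and in the contrast of the same libraries with uridine are therefore given as a description, with no test. All 6 genes were found among the 17053 genes of the count table, each once, and all 6 were among the 12218 genes that passed the filter on low counts.

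RNA was measured in NIH-3T3 cells, an established mouse fibroblast line labelled as wild type, in 5 groups of 2 libraries, replicates A and B. The first group was untreated, and the second received 800 µM uridine for 2 h. The other 3 groups received 800 µM 4-thiouridine (4sU) for 2 h as well, an analogue of uridine that ends up in newly transcribed RNA. RNA of 1 of these groups was sequenced without conversion (unconverted 4sU), that of the SLAM group after treatment with iodoacetamide, and that of the TUC group after osmium tetroxide with an ammonium salt, which make labelled positions read as T-to-C changes. The series asks whether the conversion chemistry biases quantification. The line is 1 cell line in culture, so each group is a model of cultured fibroblasts only, and nothing in the labels says that replicates came from separate cultures. The p-values below therefore measure the spread between these libraries, which may be technical.

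As background, p53 is a transcription factor that is held at a low protein level in unstressed cells and accumulates after DNA damage, nucleolar stress and other insults, when it switches on genes of arrest, repair and cell death. MDM2 is the ubiquitin ligase that sends p53 for degradation and is itself made from a p53 target gene, which closes a negative feedback loop; MDM4, also called MDMX, is its partner and binds the activation domain of p53. Ppm1d encodes the phosphatase WIP1, which removes activating phosphates from p53 and its kinases, Ccng1 encodes cyclin G1, which brings phosphatase PP2A to MDM2, and Trp53inp1 encodes a nuclear protein that promotes p53 phosphorylation and autophagy. These 3 genes are known p53 targets too. Much of the control of p53 lies in its protein, which these RNA data do not measure.

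The bases upstream of the annotated starts are shown for the 4 members whose start region holds an exact copy of the decamer element of the p53 binding site. Of these, Mdm2, Ccng1 and Ppm1d are known p53 targets, and Trp53 encodes p53 itself. The search was made with it known that several members differed in level together, and a link between element and level was not tested. RefSeq start regions (GRCm38.p6, 250 bases before to 50 after each start) were found for 5 of the 6 members, and Trp53inp1 is named only. The windows shown are Mdm2, chr10:117710759-117711008, minus strand; Ccng1, chr11:40755287-40755536, minus strand; Trp53, chr11:69580109-69580358, plus strand; and Ppm1d, chr11:85311004-85311253, plus strand. Each is written 5′ to 3′ in the direction of its gene, and capitals mark the element; in Ccng1 they also mark the 10 bases before it, which form an inexact pair with it.
Mdm2: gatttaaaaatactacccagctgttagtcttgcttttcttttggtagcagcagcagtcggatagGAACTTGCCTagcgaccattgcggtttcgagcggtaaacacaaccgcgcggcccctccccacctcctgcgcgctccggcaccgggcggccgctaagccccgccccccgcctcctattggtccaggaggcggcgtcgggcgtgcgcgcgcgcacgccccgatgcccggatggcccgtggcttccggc
Ccng1: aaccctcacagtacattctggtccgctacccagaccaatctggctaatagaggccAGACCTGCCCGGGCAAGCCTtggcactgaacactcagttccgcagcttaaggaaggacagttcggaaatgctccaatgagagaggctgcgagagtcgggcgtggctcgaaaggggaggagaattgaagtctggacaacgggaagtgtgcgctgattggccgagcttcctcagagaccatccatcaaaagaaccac
Trp53: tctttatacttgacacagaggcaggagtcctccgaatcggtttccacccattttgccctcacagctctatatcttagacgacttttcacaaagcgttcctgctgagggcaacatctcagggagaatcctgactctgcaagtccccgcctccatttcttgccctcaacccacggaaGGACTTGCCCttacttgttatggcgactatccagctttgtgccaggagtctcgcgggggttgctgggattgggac
Ppm1d: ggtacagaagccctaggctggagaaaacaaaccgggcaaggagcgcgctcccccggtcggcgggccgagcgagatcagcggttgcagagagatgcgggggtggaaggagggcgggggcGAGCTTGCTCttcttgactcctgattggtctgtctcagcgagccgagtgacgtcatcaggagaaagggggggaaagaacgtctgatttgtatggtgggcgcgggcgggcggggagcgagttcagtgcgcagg
The element is 10 bases long and reads the same way on both strands, so 1 search covers both. It begins 186 bases before the start of Mdm2 (GAACTTGCCT), 185 before that of Ccng1 (GGGCAAGCCT), 75 before that of Trp53 (GGACTTGCCC) and 132 before that of Ppm1d (GAGCTTGCTC), and neither of the start regions listed for Mdm4 holds one. Of 32851 start regions of 300 bases, 2745 (8.36%) hold at least 1 exact element. In Ccng1 the element is the second of an adjacent pair, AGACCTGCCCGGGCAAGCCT, that begins 195 bases before the start and departs from the pattern at 1 base. The pattern fixes a C and a G in each decamer, and only pairs that keep these were counted. Under that rule 22 of the 32851 regions (0.067%) hold a pair as close. The closest pair under that rule departs at 3 bases in the Trp53 region, 4 in that of Ppm1d and 9 in that of Mdm2. The search for adjacent pairs was chosen after the match in Ccng1 had been seen. These matches describe letters in a window and say nothing of binding. The best known p53 elements of Mdm2 lie at its internal promoter, beyond the first exon.

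The libraries held 27094222 to 33785682 counts on genes, and the 6 members took 0.0538 to 0.0737% of them. Levels are CPM, counts scaled to a common library size with composition factors. All 8 fibroblast markers checked were measured, with a summed level of 17689 to 27339 CPM. Epithelial markers summed to at most 0.161 CPM (2 of 4 listed), endothelial markers to at most 1.00 and muscle markers to at most 0.385 (1 of 2 listed). Leukocyte markers summed to 6.46 to 13.7 CPM (2 of 3 listed), nearly all of it Cd68, with Ptprc at most at 0.150 CPM. Replicates of a group differed by far more than counting noise, with a chi-square of 38.4 to 78.1 for each degree of freedom. Uridine and untreated libraries of one letter differed less (4.44 in A and 3.37 in B). In the other comparisons, libraries of one letter ran from 19.9 (unconverted 4sU and uridine, A) to 103.9 (SLAM and uridine, A).

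Per kilobase of the deposited gene length, the untreated levels ran from Trp53 at 67.5 ± 0.784 CPM per kilobase (SD, n = 2) through Ccng1 at 48.0 ± 2.34, Mdm2 at 20.2 ± 0.0510, Mdm4 at 11.8 ± 1.71 and Ppm1d at 4.81 ± 0.461 to Trp53inp1 at 1.44 ± 0.669. Neighbours in this order did not overlap in their libraries. In the unconverted 4sU libraries the order was the same, with Trp53 at 70.7 ± 5.20 and Ccng1 at 65.8 ± 1.97 CPM per kilobase, which differed by less than the SD of Trp53. Mdm2 stood at 45.1 ± 5.30, Mdm4 at 8.82 ± 2.34, Ppm1d at 5.84 ± 0.233 and Trp53inp1 at 3.99 ± 1.91 CPM per kilobase. Trp53inp1 was the least abundant member in all 5 groups.

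**Figure D1:**
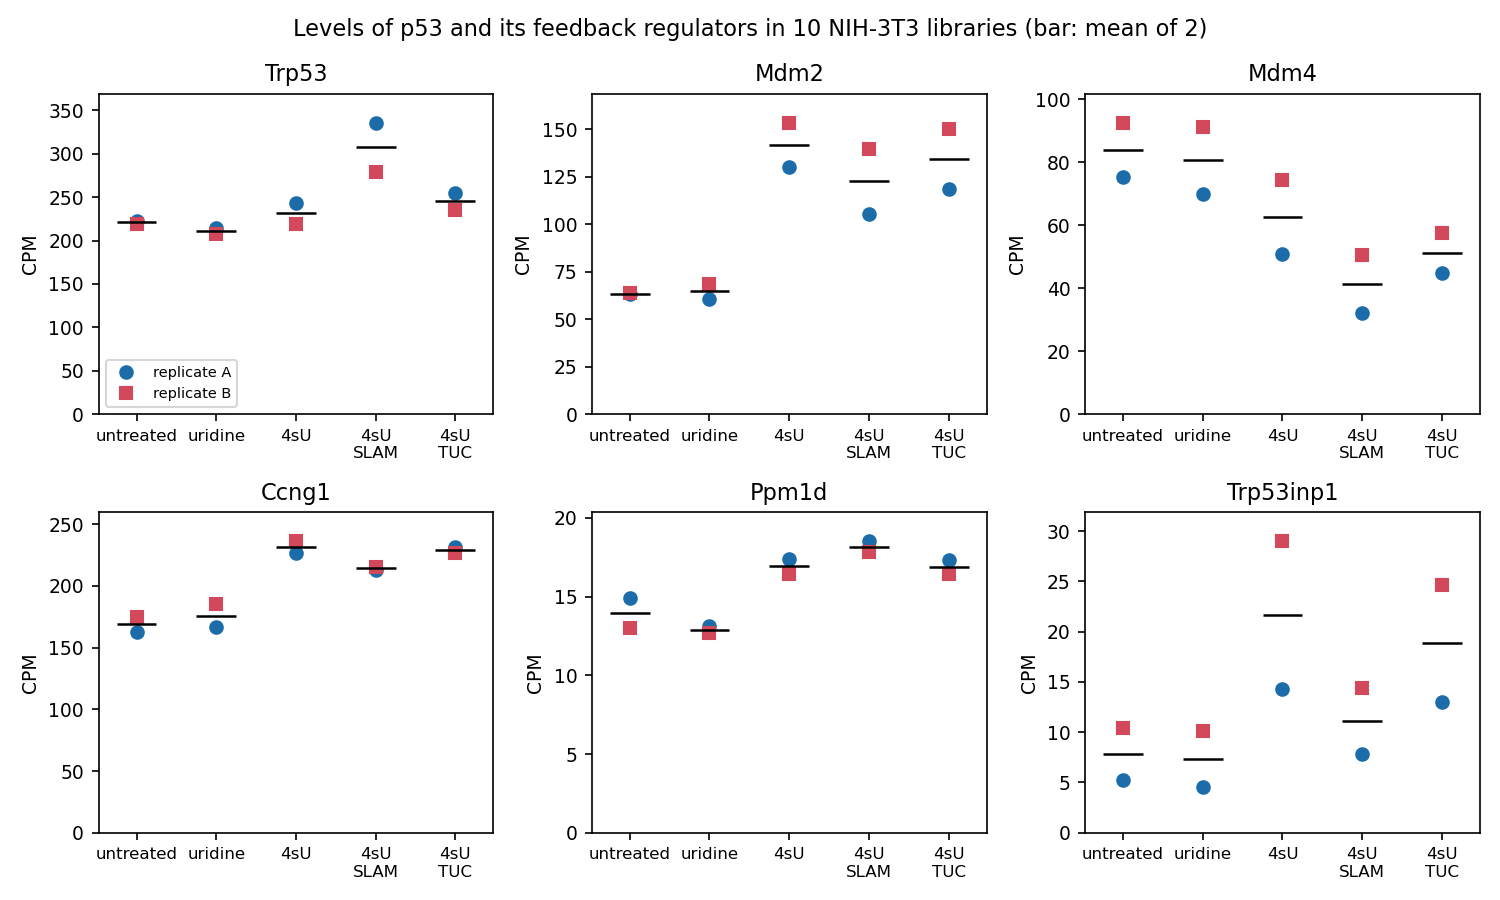
Level in CPM (vertical axis, linear, from 0) of each member in the 5 groups on the horizontal axis; circles are replicate A, squares replicate B and bars the mean of both. Mdm2 lies at 60.6 to 68.8 CPM in the 4 libraries without 4sU and at 105.7 to 153.6 in the 6 with it, Mdm4 lies lowest in the SLAM libraries, and Trp53inp1 is higher in B than in A in every group.

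Trp53 itself was nearly level across the libraries without conversion. It stood at 222.8 CPM in untreated A and 219.1 in B, at 214.7 and 207.9 with uridine, and at 243.5 and 219.4 with unconverted 4sU. In the SLAM libraries it reached 335.7 (A) and 278.5 (B), and in the TUC libraries 255.2 and 234.8. Both SLAM libraries thus stood above every other library, and how many of all genes do so was not counted. The unconverted 4sU libraries overlapped the untreated ones. The log2 difference of unconverted 4sU from untreated was 0.07 ± 0.11 (SE) and from uridine 0.13 ± 0.11. Wrap53, which starts 97 bases from Trp53 in the names table, held 300.5 to 456.0 counts, against 5909.5 to 9822 for Trp53, and the strand setting of the counting is not given in the sources used here.

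Mdm2, the ubiquitin ligase for p53, was the well expressed member with the largest log2 difference between unconverted 4sU and untreated libraries. It stood at 63.4 and 63.7 CPM in untreated A and B and at 60.6 and 68.8 with uridine. With unconverted 4sU it stood at 130.0 and 153.6, with SLAM at 105.7 and 139.6, and with TUC at 118.6 and 150.1. The 6 libraries with 4sU did not overlap the 4 without it, and among them B was the higher of each pair. How many of all genes separate in this way was not counted, for Mdm2 or for the members below. The unconverted 4sU mean was 2.23-fold the untreated mean (log2 difference 1.16 ± 0.17 SE) and 2.19-fold the uridine mean (1.13 ± 0.17).

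Mdm4, the partner of MDM2, lay lower with 4sU. It stood at 75.4 and 92.6 CPM in untreated A and B, at 70.0 and 91.3 with uridine, and at 50.9 and 74.4 with unconverted 4sU. The SLAM libraries held 32.3 and 50.5, and the TUC libraries 44.7 and 57.6. Within each letter the order was untreated, uridine, unconverted 4sU, TUC and SLAM from high to low. The unconverted 4sU libraries did not overlap the untreated ones but overlapped those with uridine, with log2 differences of -0.42 ± 0.27 and -0.36 ± 0.27 (SE). In the names table the lncRNA Gm41953 and the pseudogene Gm29257 overlap Mdm4. How reads there were assigned is not given in the sources used here, so the values of Mdm4 may include theirs.

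Ccng1, the cyclin G1 gene, was moderately higher with 4sU. It stood at 162.9 and 174.5 CPM in untreated A and B, at 166.8 and 184.8 with uridine and at 226.3 and 236.1 with unconverted 4sU. SLAM libraries held 212.7 and 215.6, and TUC libraries 231.2 and 226.6. All 6 libraries with 4sU stood above all 4 without it. The log2 difference of unconverted 4sU was 0.45 ± 0.09 (SE) from untreated and 0.40 ± 0.09 from uridine.

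Ppm1d, the WIP1 phosphatase gene, was low, and lay moderately higher with 4sU. It stood at 14.9 and 13.0 CPM in untreated A and B, at 13.1 and 12.7 with uridine, at 17.4 and 16.5 with unconverted 4sU, at 18.5 and 17.8 with SLAM and at 17.3 and 16.4 with TUC. The 6 libraries with 4sU again stood above the 4 without, a separation whose share over all genes was not counted. The log2 difference of unconverted 4sU was 0.28 ± 0.10 (SE) from untreated and 0.39 ± 0.10 from uridine.

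Of the members, Trp53inp1 had the largest log2 difference of unconverted 4sU from untreated and from uridine, and in each group the largest B to A ratio. It stood at 5.23 and 10.4 CPM in untreated A and B and at 4.54 and 10.1 with uridine, which rest on 125 to 359 counts. With unconverted 4sU it stood at 14.3 and 29.0, with SLAM at 7.79 and 14.4, and with TUC at 13.0 and 24.6. In each group B was 1.85 to 2.23 times A. The unconverted 4sU libraries did not overlap those without 4sU, whereas the SLAM libraries did. The log2 difference of unconverted 4sU from untreated was 1.47 ± 0.56 (SE) over both letters, 1.45 in A and 1.48 in B, and that from uridine was 1.55 ± 0.56.

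The B to A ratio set the members apart in the other groups too. For Mdm4 it was 1.23 to 1.57, for Mdm2 1.00 to 1.32, for Ccng1 0.980 to 1.11, for Ppm1d 0.873 to 0.965 and for Trp53 0.830 to 0.984. Libraries of 1 letter deviated together across genes, and the labels do not say what they share. Each test of counts is therefore given without the letter as a term and with the letter as a block.

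No member was called between the uridine and the untreated libraries. The quasi-likelihood test of edgeR, adjusted by Benjamini-Hochberg over all genes, called 0 members in uridine minus untreated, without the block (0% of 12218 genes called, 46 at an unadjusted p under 0.05) and with it (0.00818%, 1 gene, 380 unadjusted). None of the members had an unadjusted p under 0.05 in either fit, and DESeq2 with and without the block called 0 members. The log2 differences ran from -0.11 ± 0.10 for Ppm1d to 0.06 ± 0.09 for Ccng1, and the largest SE was 0.57, for Trp53inp1. With so wide an SE a change of Trp53inp1 was not detectable without the block, and with it the difference was -0.09 ± 0.10.

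The converted 4sU libraries against uridine share no library with the contrast of unconverted 4sU and untreated, but they share the uridine libraries with the other described contrast. Libraries of 1 letter deviated together, and what they share is not given, so these are other libraries but not shown to be separate cultures. They hold the effect of labelling together with any effect of the chemistry. The members were chosen with the high Mdm2 and Trp53inp1 in unconverted 4sU libraries known, and a higher value with 4sU is favoured by that choice. The differences of these 2 genes from uridine are therefore given as a description, although the counts of called members include them. The other members were also chosen with the unconverted 4sU comparisons known. Their tests, and the counts set beside the share of all genes, are therefore not independent of that choice. In SLAM minus uridine 4 of the 6 members were called by edgeR's quasi-likelihood test, where 20.4% of 12218 genes were called. Trp53 rose (log2 0.54 ± 0.11 SE, edgeR adjusted p = 0.0158), Ppm1d rose (0.50 ± 0.10, adjusted p = 0.0157) and Mdm4 fell (-0.96 ± 0.27, adjusted p = 0.0421). Mdm2, the other member counted, stood 1.89-fold higher (log2 0.92 ± 0.17). Ccng1 (0.28 ± 0.09, adjusted p = 0.0534 in edgeR) did not pass, and Trp53inp1, at 0.59 ± 0.57, was not counted. With the letter as a block, 59.5% of genes were called, and with them all 6 members, 5 higher and Mdm4 lower. A call with the block is thus close to what most genes show.

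In TUC minus uridine 2 of the 6 members were called by edgeR without the block, where 6.38% of genes were called. Ccng1 rose (log2 0.38 ± 0.09 SE, edgeR adjusted p = 0.0441). Mdm2, the other member counted and again given as a description, stood 2.08-fold higher (log2 1.05 ± 0.17). Ppm1d stood at 0.39 ± 0.10 (adjusted p = 0.0634 in edgeR), Trp53 at 0.21 ± 0.11 (0.264) and Mdm4 at -0.66 ± 0.27 (0.173). Trp53inp1 was not counted and stood at 1.35 ± 0.56, as a description. With the block, all 6 members were called, 5 higher and Mdm4 lower, where 50.5% of genes were called. Trp53inp1 then stood at 1.37 ± 0.09, also as a description. SLAM and TUC were compared with the same uridine libraries, so these comparisons are not independent of each other.

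Most calls without the block were lost when 1 library was left out, which leaves 1 library in its group. The log2 differences of all 6 members kept their sign under each removal in both comparisons with uridine. In SLAM minus uridine, leaving out uridine A or uridine B left 0 members called, leaving out SLAM A left Mdm2 alone, and leaving out SLAM B left the same 4. In TUC minus uridine, leaving out any 1 of the 4 libraries left 0. With the block, SLAM minus uridine kept all 6 members under each removal, and TUC minus uridine kept 5 or 6. Trp53 was the member lost there, without uridine A (edgeR adjusted p = 0.125) and without TUC B (0.0504).

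**Figure D2:**
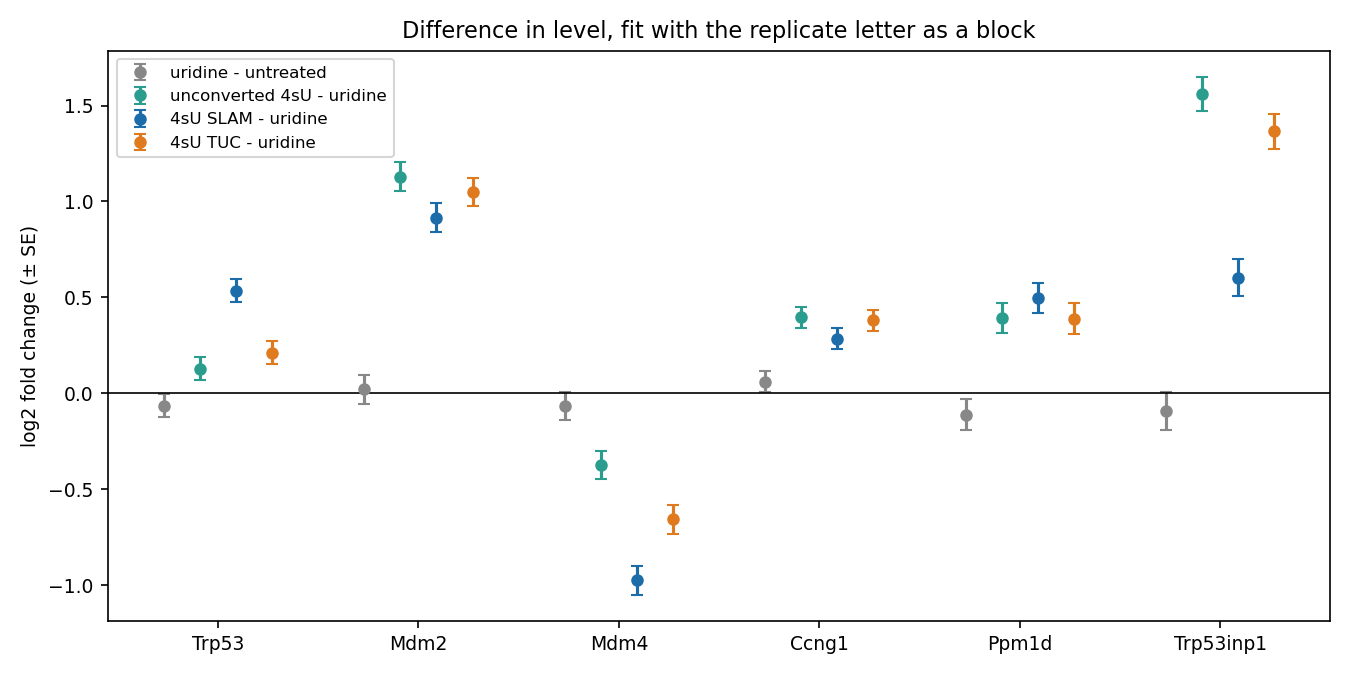
Log2 difference in level (vertical axis, ± SE) of each member for 4 comparisons, from edgeR's fit with the replicate letter as a block; grey is uridine minus untreated, and the other 3 colours are unconverted 4sU, SLAM and TUC minus the same uridine libraries. Mdm2 lies between 0.92 and 1.13 in all 3 comparisons with 4sU, Mdm4 lies below 0 in all 3, and SLAM lies above the other two for Trp53 and below them for Trp53inp1.

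The chemistries were then compared with unconverted 4sU RNA, which asks whether levels differ after conversion. The members were chosen with the high Mdm2 and Trp53inp1 in these same unconverted libraries known, and a lower value after conversion is favoured by that choice. The differences of these 2 genes are therefore given as a description, although the counts of called members include them. The other members were also chosen with these libraries known, so their tests are not independent of that choice. In SLAM minus unconverted 4sU, edgeR called 0 members without the block (0.344% of genes called; 1 member, Trp53, had an unadjusted p under 0.05), and DESeq2 called 1, Trp53. With the block 4 members were called, where 41.6% of genes were. Trp53 was higher by a log2 difference of 0.41 ± 0.06 (SE; edgeR adjusted p = 7.59e-05, and 0.128 without the block). Mdm4 was lower (-0.60 ± 0.08, edgeR adjusted p = 2.51e-05 with the block and 0.282 without). The difference was -0.96 ± 0.08 for Trp53inp1 and -0.21 ± 0.07 for Mdm2 with the block, and these are the other 2 members counted. Mdm2 was no longer counted without unconverted 4sU A, unconverted 4sU B or SLAM A. Ccng1 (-0.11 ± 0.05) and Ppm1d (0.10 ± 0.08) were not called in either fit.

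Fewer members were called in TUC minus unconverted 4sU. Without the block edgeR called 0 members and 0% of genes (846 genes, and none of the members, at an unadjusted p under 0.05), and DESeq2 called 0 members. With the block, where 25.8% of genes were called, Mdm4 alone was called, lower by a log2 difference of 0.28 (-0.28 ± 0.08 SE, edgeR adjusted p = 0.0131). That call was lost when any 1 of the 4 libraries was left out, with edgeR adjusted p from 0.0527 (without TUC A) to 0.182 (without unconverted 4sU B). Trp53inp1 stood at -0.20 ± 0.08, Trp53 at 0.08 ± 0.06, Mdm2 at -0.08 ± 0.07, Ccng1 at -0.01 ± 0.05 and Ppm1d at 0.00 ± 0.08 with the block.

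Tested directly against each other, TUC and SLAM differed at 3 members with the block and at 0 without it. Without the block edgeR called 0% of genes (1205 genes and 1 member, Trp53, at an unadjusted p under 0.05), and DESeq2 called 0 members. With the block, where 20.1% of genes were called, Trp53inp1 was higher with TUC (0.76 ± 0.09 SE, edgeR adjusted p = 3.84e-05), Mdm4 was higher (0.32 ± 0.08, 0.00882) and Trp53 was lower (-0.32 ± 0.06, 0.00136). The Mdm4 call was lost without SLAM A (edgeR adjusted p = 0.0516), TUC A (0.131) or TUC B (0.0502), while without SLAM B Mdm2 was called as well (0.24, adjusted p = 0.0105). Mdm2 (0.13 ± 0.07), Ccng1 (0.10 ± 0.05) and Ppm1d (-0.11 ± 0.08) were not called with all libraries.

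The table also gives, per gene and library, a posterior mode with a 0.05 and a 0.95 quantile. The header leaves the quantity unnamed. It is read here as the part of each transcript pool that arose within the 2 h of labelling (new RNA), because unconverted libraries have values near 0. By this measure the members fell into 3 ranges. Mdm2, Ppm1d and Trp53inp1 were almost wholly new, Mdm4 mostly so, and Trp53 and Ccng1 less than the typical gene, whose median was 52.3% in SLAM A, 61.1% in SLAM B, 54.4% in TUC A and 63.0% in TUC B over the 10202 genes that averaged at least 100 reads.

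Mdm2 RNA was 99.6% new in SLAM A (quantiles 98.7 to 99.9%), 99.8% in SLAM B, 99.7% in TUC A and 98.9% in TUC B. Ppm1d stood at 100%, 96.9%, 99.8% and 97.5% in the same order, and Trp53inp1 at 98.3%, 96.4%, 99.3% and 99.6%. In SLAM A the mode of Ppm1d, at 100%, lies above its own upper quantile of 99.9%, so the values next to 100% are bounds more than measurements. In each of the 4 converted libraries these 3 genes ranked above 90.9% to 99.2% of genes.

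Mdm4 stood at 77.7% in SLAM A and 87.4% in SLAM B, and at 79.7% in TUC A and 86.8% in TUC B, above 70.5 to 74.8% of genes. Trp53 stood at 30.6%, 38.6%, 32.3% and 39.3%, and Ccng1 at 33.5%, 39.6%, 36.3% and 43.8%, in the same order of libraries. Both ranked above 27.6 to 32.4% of genes in these libraries. For these 3 genes B exceeded A in both chemistries by more than the quantile ranges, as did the median over genes. Ccng1 is a p53 target like Mdm2 and Ppm1d, but it stood below the median gene in each converted library where they stood near 100%.

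Without conversion the share was 0 to 3% for each member. In 4 of the 6 members both unconverted 4sU libraries lay above both uridine libraries, as they did in 45.1% of the 10202 genes.

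**Figure D3:**
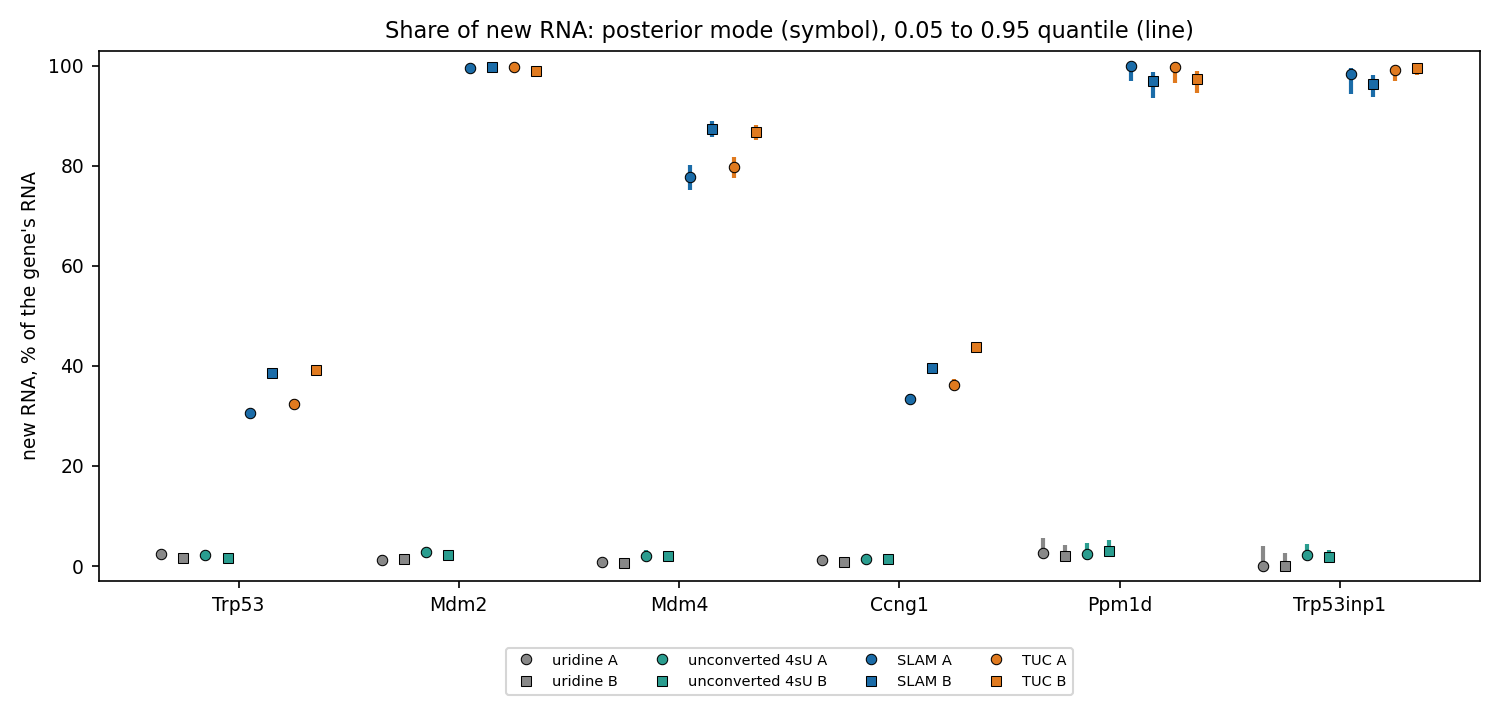
New RNA as a percentage of each member's RNA (vertical axis, 0 to 100%) in the 8 libraries with an estimate; symbols are the posterior modes, circles A and squares B, and vertical lines run from the 0.05 to the 0.95 quantile. Uridine and unconverted 4sU libraries lie between 0 and 3%, Trp53 and Ccng1 at 30.6 to 43.8% in converted libraries, Mdm4 at 77.7 to 87.4%, and Mdm2, Ppm1d and Trp53inp1 at 96.4 to 100%.

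No member's new RNA share was called different between TUC and SLAM. On a logit scale with base 2, limma called 0 members and 0% of 10202 genes without the block (187 genes at an unadjusted p under 0.05) and again 0 and 0% with it (929 genes). The differences ran from -0.06 ± 0.30 (SE) for Mdm2 to 1.34 ± 0.44 for Trp53inp1. The latter was the 1 member with an unadjusted limma p under 0.05 without the block (limma's adjusted p = 1). Shares above 99% were set to 99% for this test, among them those of Mdm2 in SLAM A, SLAM B and TUC A. Both TUC shares of Trp53inp1 and the Ppm1d shares of SLAM A and TUC A were set to it too. The differences of these genes therefore depend on that ceiling. Over the settings tried, that of Mdm2 went as low as -0.98 and that of Trp53inp1 as high as 2.13. With 4 libraries and shares near 100%, differences among the almost wholly new genes were not detectable.

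If levels were steady and decay exponential, a new share of RNA would give an apparent half-life. For Trp53 this was 3.80 h in SLAM A, 2.84 h in SLAM B, 3.55 h in TUC A and 2.78 h in TUC B, and for Ccng1 3.40, 2.75, 3.08 and 2.41 h. For Mdm4 it was 0.923, 0.669, 0.869 and 0.686 h. For the 3 others the lower quantile of the share gives upper limits of at most 20.5 min for Mdm2, at most 30.2 min for Ppm1d and at most 30.1 min for Trp53inp1. The levels of these genes differed between libraries with and without 4sU, so they were not steady and the limits are nominal. In total RNA of a culture, fewer cells with a transcript and less of it per cell cannot be told apart.

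New and pre-existing RNA, the level multiplied by the new share and by its remainder, show where the members' differences from uridine lay. The new Mdm2 RNA alone was 105.3 CPM in SLAM A, 139.3 in SLAM B, 118.2 in TUC A and 148.5 in TUC B, which is 1.74 to 2.16 times the whole Mdm2 level of the uridine library of the same letter. Its pre-existing RNA was 0.349 to 1.62 CPM, or 0.507 to 2.36% of the uridine level. New Ppm1d RNA was 1.26 to 1.41 times and new Trp53inp1 RNA 1.37 to 2.85 times the uridine level. For all 3 genes new RNA alone thus exceeded the uridine level of the same letter. Across letters Trp53inp1 overlapped, with 7.66 CPM of new RNA in SLAM A against a whole level of 10.1 CPM in uridine B.

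Mdm4 showed the reverse pattern. Its new RNA was 25.1 CPM in SLAM A, 44.1 in SLAM B, 35.6 in TUC A and 50.0 in TUC B, or 0.358 to 0.547 times the uridine level. Its pre-existing RNA was 10.3%, 6.96%, 13.0% and 8.35% of that level, where the median gene kept 43.2%, 34.9%, 41.7% and 33.1%. Both parts together stayed below the uridine level in all 4 converted libraries.

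For Trp53 the pre-existing RNA was 109% of the uridine level in SLAM A, 82.3% in SLAM B, 80.4% in TUC A and 68.6% in TUC B, and the new RNA was 0.384 to 0.517 times that level. SLAM A thus held more Trp53 RNA counted as pre-existing than the uridine library held in all. CPM are shares of a library and not amounts per cell. Ccng1 kept 84.9%, 70.5%, 88.4% and 69.0% as pre-existing RNA and added 0.427 to 0.536 times the uridine level as new RNA.

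**Figure D4:**
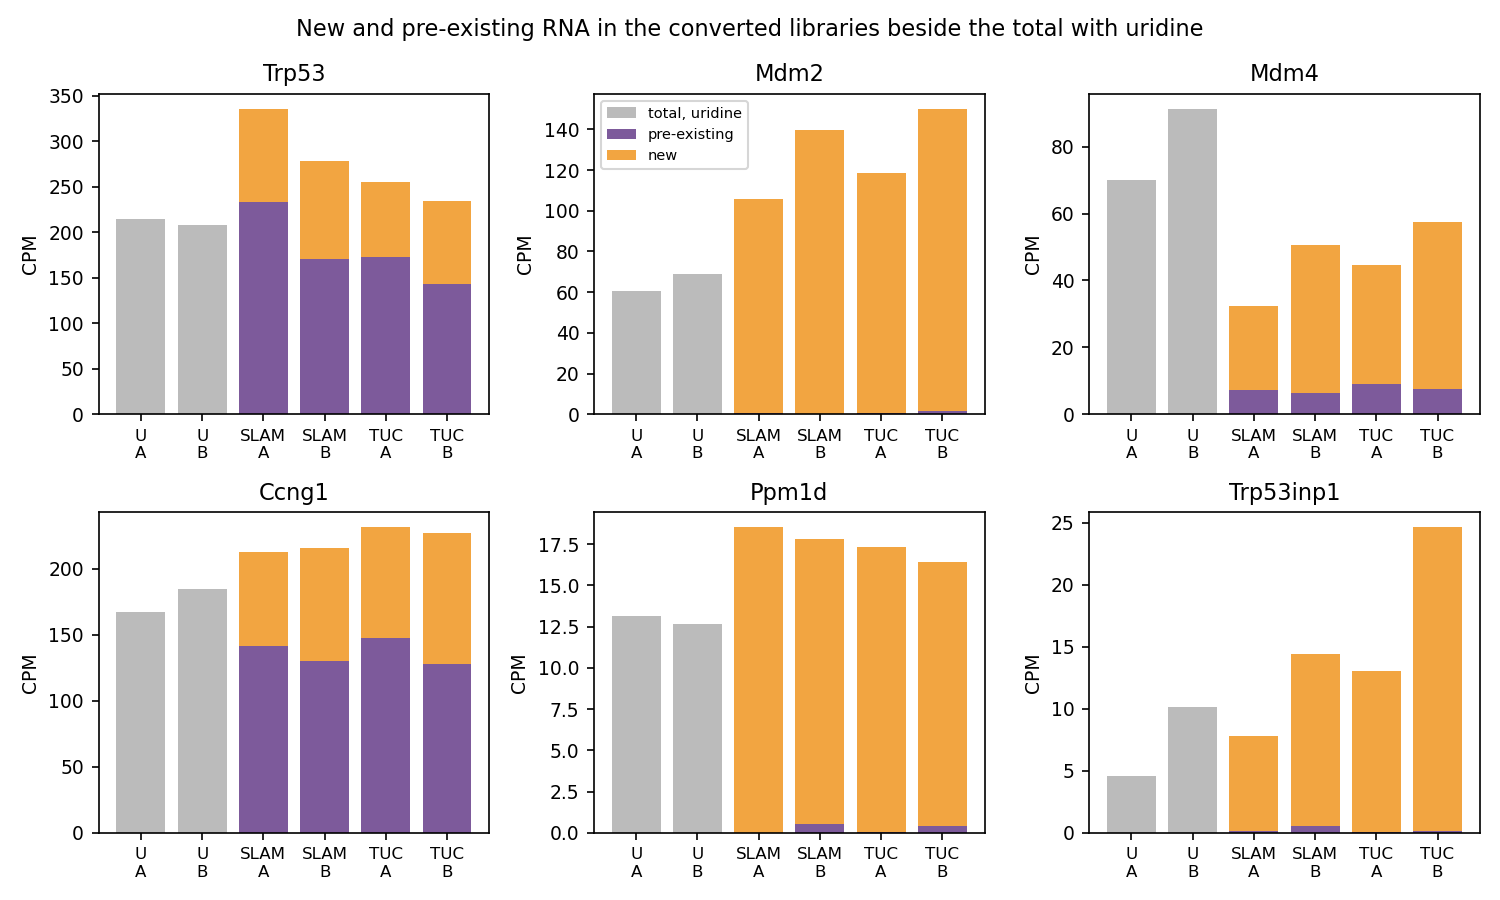
Level in CPM (vertical axis, linear, from 0) of each member split into pre-existing RNA (purple) and new RNA (orange) in the SLAM and TUC libraries, beside the whole level in the uridine libraries (U, grey); A and B are the replicates. Mdm2, Ppm1d and Trp53inp1 are almost all orange and exceed the grey bar of their letter, Mdm4 is mostly orange and stays below it, and Trp53 and Ccng1 are mostly purple.

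Other p53 regulators were taken as a list of 34 genes, of which 30 were in the table and 29 tested, and p53 targets as a list of 31, of which 30 were in the table and 28 tested. Both lists were drawn up with earlier results of these data known, and that choice may favour a difference with 4sU. In unconverted 4sU minus uridine, which shares the uridine libraries, the median log2 difference of the targets was already 0.30. The shares of called list genes beside those of all genes are therefore a description. In SLAM minus uridine, edgeR called 11 targets higher and 2 lower without the block, 46.4% of the 28, where 20.4% of all genes were called. With the block it called 15 and 3, or 64.3%, which is near the 59.5% of all genes. The median log2 difference of the 28 was 0.31, against 0.02 over all genes tested. Cdkn1a, the p21 gene of cell cycle arrest, rose from 87.4 ± 3.47 to 232.3 ± 1.83 CPM (SD, n = 2; log2 1.41 with the block), Psrc1 rose by 1.28, Phlda3, an inhibitor of AKT, by 1.23 and Bbc3, the PUMA gene of cell death, by 1.07. In TUC minus uridine, 9 targets were called without the block, each higher (32.1%, against 6.38% of all genes), and 17 higher and 2 lower with it (67.9%, against 50.5%), with a median of 0.32. Cdkn1a again led (1.48), followed by Eda2r (1.24), Psrc1 (1.21) and Btg2 (1.19). Mdm2 stood at 0.92 with SLAM and at 1.05 with TUC, below the 4 targets named for the same comparison.

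The median difference of the regulators was below 0 in both comparisons with uridine. In SLAM minus uridine, edgeR called 4 regulators without the block, each lower (13.8%, against 20.4% of all genes), and 6 higher and 13 lower with it (65.5%, against 59.5%), with a median log2 difference of -0.19. In TUC minus uridine 4 were called without the block, each lower (13.8%, against 6.38%), and 4 higher and 13 lower with it (58.6%, against 50.5%), with a median of -0.06. Atm, the kinase that signals DNA breaks to p53, fell by 1.32 on the log2 scale in both comparisons, from 31.1 ± 6.89 CPM with uridine to 12.4 ± 4.46 with SLAM and 12.4 ± 1.11 with TUC (SD, n = 2). Usp7, the deubiquitinase of MDM2 and p53, fell by 0.92 with SLAM and by 0.78 with TUC, Atr by 0.81 and 0.75, and Hipk2, a p53 kinase, by 0.76 and 0.84. Mdm4 stood at -0.97 with SLAM and at -0.66 with TUC, both with the block.

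Against unconverted 4sU, and between TUC and SLAM, edgeR called 0 regulators and 0 targets without the block, where 0.344% of genes (SLAM minus unconverted 4sU) or 0% (the other comparisons) were called. With the block it called 5 regulators higher and 10 lower in SLAM (51.7%, against 41.6% of all genes), led by Atm (-0.92), Hipk2 (-0.86), Ppp1r13l (0.58) and Crebbp (0.46), and 5 targets higher and 6 lower (39.3%), led by Eda2r (-0.58), Apaf1 (-0.55), Bbc3 (0.45) and Rrm2b (-0.42). In TUC, 4 regulators were higher and 8 lower (41.4%, against 25.8% of all genes), led by Hipk2 (-0.93), Atm (-0.92), Ep300 (-0.64) and Huwe1 (-0.60), and 1 target was higher and 3 lower, 14.3% of the 28 (Rps27l 0.39, Apaf1 -0.38, Eda2r -0.32, Sesn2 -0.22). Between TUC and SLAM with the block, 3 regulators were higher and 2 lower (17.2%) and 3 targets higher and 3 lower (21.4%), where 20.1% of all genes were called.

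Across the 10 libraries, log2 levels of the members went together in part. Mdm2 and Ccng1 had a Pearson r of 0.96, Mdm2 and Trp53inp1 of 0.84, Mdm2 and Ppm1d of 0.82, and Trp53 and Mdm4 of -0.92, whereas Trp53 and Trp53inp1 had 0.00. With the difference between letters removed these were 0.96, 0.91, 0.92, -0.93 and 0.25 in the same order. Trp53inp1 changed most by this, from 0.43 to 0.74 with Ppm1d and from -0.07 to -0.52 with Mdm4. These are descriptions over 10 libraries in 5 groups that share treatment, letter and depth. Among 8799 genes with a mean of 10 CPM or more, those most like Mdm2 were Eda2r (r = 0.98), Errfi1 (0.97) and Cdkn1a (0.96), and those most like Ccng1 were Zfp930, Rnpc3 and Btg2 (0.98 each). Nearest to Trp53 were Agpat1, Ankrd13a and Crat (0.99 each), to Mdm4 Shprh, Nbeal1 and Zdhhc21 (1.00 each), to Ppm1d Cpsf1 (0.97), Slc25a38 (0.96) and Gtse1 (0.96), and to Trp53inp1 Sertad4 (0.97), Hsd17b11 (0.96) and Stam (0.96). These rankings depend on the measure: by rank correlation 0 or 1 of each member's 3 nearest genes stayed among the nearest 3.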

How the data were processed

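The authors deposited expected counts for each gene and library, not scaled between libraries as far as headers and values show, and 24.8 to 30.3% of the genes in a library have a count that is not whole. For 8 libraries the authors deposited a fraction for each gene as a posterior mode with quantiles, used here as the new RNA share. The deposited length of each gene is in bases, and which length is meant is unstated. The submitters' processing notes list cutadapt, Bowtie2 2.3.0 and STAR 2.7.10b. Build, annotation, counter and strand setting were not given in the sources used here. 24 columns of values per library were not used.

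Sample titles gave the groups and letters. Counts were rounded to whole numbers, and 12218 genes passed filterByExpr. TMM factors were applied, and edgeR 4.0.16 in R 4.3.3 fitted all 10 libraries together with its quasi-likelihood method. Benjamini-Hochberg adjustment ran over all genes, with a threshold of 0.05. CPM use the same factors. DESeq2 1.42.0 was an alternative. New RNA shares of 10202 genes (at least 100 reads on average in converted libraries) were held between 1 and 99%, put on a logit scale with base 2 and tested with limma 3.58.1. The code was tested on simulated data. The SE of a log2 difference is its size divided by the root of edgeR's F. Alternatives changed the scaling, count filter, test, libraries in the fit, letter block, read minimum, floor of the share and scale, and left out each library in turn.

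Every group has a replicate A and a replicate B. Libraries were taken as paired by letter because the letters' differences correlated across genes between groups (r 0.584 to 0.690 for 10 pairs of groups), and because the second principal component, with 24.0% of variance, set A apart from B. A letter block lowered the common dispersion from 0.0187 to 0.00195. Members, lists, tests and alternatives were chosen with earlier results of these data known. The members are named in every comparison, and of each list up to 4 genes are named per comparison, those called with the block and with the largest log2 difference. The genes most like a member are the 3 with the highest Pearson correlation of log2 CPM. The RefSeq names table (GRCm38.p6) matched 91.2% of symbols and all 6 members, and served for names, neighbours and start regions only.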

Additional observations from a re-analysis of the deposited data

Results flagged for a closer look

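The share of new RNA was also estimated in libraries that went through no conversion chemistry, and for 4 members both unconverted 4sU libraries lay above both uridine libraries. The same held for 4600 of 10202 genes (45.1%), and the median over these genes was 1.94% and 1.77% with unconverted 4sU against 1.42% and 1.00% with uridine, so this is not particular to the members. The mean of both replicates was 2.52% for Mdm2 against 1.29% with uridine, 2.06% for Mdm4 against 0.715%, 1.38% for Ccng1 against 1.05%, and 1.98% for Trp53inp1 against 0%. The uridine modes of Trp53inp1, at 0%, lie below their own quantile ranges of 0.09 to 4.07% (A) and 0.1 to 2.66% (B). They are bounds more than measurements. For each of these 4 members the quantile range of at least 1 unconverted 4sU library overlaps that of a uridine library, and the difference was not tested. This criterion was set after some of these values had been seen. For Trp53 and Ppm1d the groups overlapped.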

How the results depend on the processing

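Without the letter as a term, SLAM minus uridine called 4 members. It called 5 with DESeq2's size factors, in DESeq2 and with a mean of 100 counts or more, 4 with no count filter, 3 with library totals, 6 with the replicate block and 0 with only the 4 libraries compared. Leaving out 1 library gave 0 to 4. TUC minus uridine called 2 members, 3 in DESeq2 and with a mean of 100 counts or more, 2 with DESeq2's size factors, 1 with library totals alone, 1 with no count filter and 0 with only the 4 libraries, and leaving out 1 library gave 0 each time. With the replicate block TUC minus uridine called 6 members, also with library totals and in DESeq2. SLAM minus unconverted 4sU called 0 members, 1 in DESeq2, 4 with the replicate block, 5 with the block and library totals and 4 with the block in DESeq2. TUC minus unconverted 4sU called 0 members and 1 with the block under each of these settings, and leaving out any 1 library with the block gave 0. TUC minus SLAM called 0 members and 3 with the block under each of these settings. Fits without a library, or of 4 libraries, hold fewer samples by construction, and the cause of the other changes was not tested.

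Signs turned for some values that were not called. Leaving out 1 library, the log2 difference of uridine minus untreated ran from -0.0691 to 0.12 for Mdm2, -0.26 to 0.12 for Mdm4, -0.0171 to 0.13 for Ccng1 and -0.78 to 0.50 for Trp53inp1. For TUC minus unconverted 4sU it ran from -0.26 to 0.0741 for Mdm2, -0.54 to 0.0068 for Mdm4, -0.0426 to 0.0163 for Ccng1, -0.0523 to 0.0385 for Ppm1d and -0.74 to 0.40 for Trp53inp1, and for TUC minus SLAM from -0.0674 to 0.35 for Mdm2. The logit difference in new RNA share ran from -0.18 to 0.34 for Trp53, -0.45 to 0.54 for Mdm4, -0.0116 to 0.44 for Ccng1 and -0.69 to 0.97 for Ppm1d. It was -0.0389 for Trp53 and -0.0748 for Mdm4 after centring on the library median, and -0.24 for Ppm1d with a floor of 0.001. Of the recomputed log2 differences with a test, 375 kept their sign and side of the threshold, 49 passed it newly, 28 no longer did and 16 changed sign. Of those given as a description, 123 moved by less than the SD of the log2 difference within A and that within B. The other 33 moved by more. Without unconverted 4sU A, the log2 difference of unconverted 4sU minus untreated was -0.0129 for Trp53, -0.18 for Mdm4 and 1.89 for Trp53inp1. Without unconverted 4sU B it was 0.14, -0.72 and 0.88. Mdm4 stood at -0.27 without untreated B. Trp53inp1 stood at 2.05 there and at 1.06 without untreated A. From uridine, Mdm4 ran from -0.66 (without unconverted 4sU B) to -0.12 (without A) and Trp53inp1 from 0.95 (without unconverted 4sU B) to 2.25 (without uridine B). Of the 3 genes most like each member, 0 or 1 remained among the nearest 3 in 10 rankings recomputed by rank correlation or without the letter's difference, and 2 remained in 2.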
